A study of Caenorhabditis elegans with 4 samples.

Results

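The 49 genes described here build and run the contractile apparatus of Caenorhabditis elegans muscle. They were chosen by name, and all 49 were found among the 19971 nuclear protein-coding genes of the gene table, which left 19922 other genes for comparison. Binding of EFL-1 was mapped by chromatin immunoprecipitation and sequencing (ChIP-seq) in hermaphrodite larvae of the first stage (L1; the stage label adds 26dC, while the growth protocol gives 20 °C) of strain MT10430, which carries the mutation lin-35(n745). There were 2 ChIP samples made with a rabbit polyclonal EFL-1 antibody and 2 matched input samples. All samples carried lin-35(n745), so binding with intact LIN-35 was not measured. Whole larvae were used, and binding in muscle cells cannot be told apart from binding in other tissues.

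Body wall and pharyngeal muscle is built from interleaved thick filaments of myosin and paramyosin and thin filaments of actin, tropomyosin and troponin. Dense bodies and M-lines anchor these filaments through integrin to the basement membrane. EFL-1 is a worm E2F transcription factor. Together with LIN-35, the worm relative of the retinoblastoma protein, it forms part of the DREAM complex, which is best known for repressing cell cycle genes. Muscle genes, as genes of a differentiated tissue, are therefore set beside the DNA replication genes that E2F factors are known to regulate.

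The authors' combined list held 4966 peaks, and the nuclear lists of the replicates held 22252 (replicate 1) and 22438 (replicate 2). Peaks carry a number in their names, which was taken here as a rank with 1 as the strongest, and "stronger" and "weaker" refer to this number throughout. A gene was counted as having an end peak when a peak centre lay within 500 bp of either end of its annotated span. The gene table gives no strand, so which end is the start was not known. A gene with peaks at both ends has one at its start whichever strand it is on, and the number of genes with a bound start lies between the count for both ends and the count for either end. Peaks are in WS220 coordinates and genes in WBcel235. The offset between them, as peak position minus gene position, was estimated at -52.5 to -5.8 bp per chromosome, and moving gene ends by its local estimate changed no muscle gene's call. The peak lists hold no read depths, so the strength of a single peak has no error, and whether the 2 replicates came from separate cultures is not stated.

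Of the 49 muscle genes, 14 had a combined EFL-1 peak at an end (28.6%, exact 95% interval 16.6 to 43.3%), against 19.6% of all other protein-coding genes (3911 of 19922). At both ends, 3 muscle genes had a peak (6.12%, 1.28 to 16.9%), against 1.90% of the other genes (379). The share of muscle genes with a bound start thus lay between 6.12% and 28.6%, and that of the other genes between 1.90% and 19.6%. The interval for either end includes the share of the other genes. If each muscle gene were given the share of other genes on its own chromosome, 9.87 would have an end peak, and if given the share of other genes of like length, 10.8. No test was made of these differences, because the genes were chosen with earlier results of these data known.

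The difference from the other genes was smaller for stronger peaks and for a narrower window, although these splits leave 6 to 8 muscle genes on a side and were not tested. With the stronger 50% of the combined list (2483 peaks), 6 muscle genes had an end peak (12.2%), against 12.1% of the other genes. With a window of 250 bp, 7 muscle genes did (14.3%), against 13.1% of the other genes. Nearest peaks between 250 and 500 bp from an end were found for another 7 muscle genes (14.3%), against 6.52% of the other genes. At the 14 muscle genes the strongest end peak had a median number of 2714 (412 to 4351), and at the 3911 other genes with an end peak a median of 1892 (1 to 4966). Among these strongest end peaks, 3 of 14 at muscle genes were in the first 1000 of the list (21.4%), against 29.4% at the other genes.

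**Figure D1:**
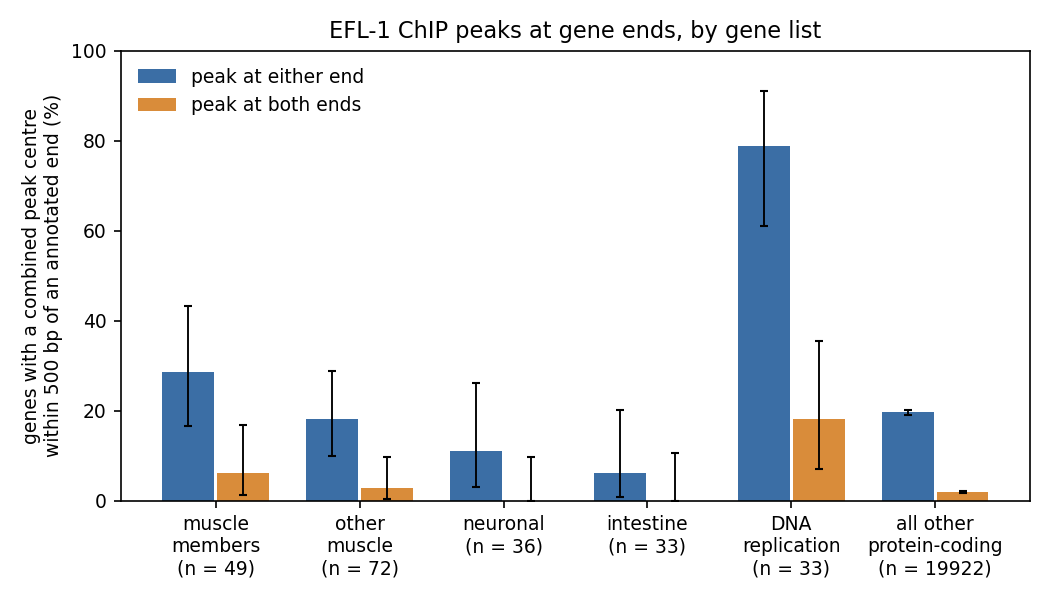
Percentage of genes with a combined EFL-1 peak centre within 500 bp of either annotated end (blue) or of both ends (orange), for the 49 muscle genes, 4 other gene lists and all other protein-coding genes; bars start at 0 and error bars are exact 95% intervals, which cover counting error only. Muscle genes stand at 28.6% and 6.12%, all other protein-coding genes at 19.6% and 1.90%.

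The attachment complex, which ties the filaments to the cell membrane, had end peaks at 4 of its 9 genes: deb-1, unc-112, pat-6 and pat-4. Among all other protein-coding genes the share was 19.6%, and no difference between roles was tested. The lowest-numbered peak within 500 bp of an end of any of the 49 genes lay 278 bp outside deb-1, which encodes vinculin of the dense body. It was combined peak 412 (chromosome IV from 7084797 to 7085076), and it was number 367 in replicate 1 and 478 in replicate 2. Its centre was still closer, at 254 bp, to an end of rps-4, a ribosomal protein gene, so this peak cannot be given to deb-1 alone. The peak at unc-112, the kindlin of these junctions, was number 1138 (1189 in replicate 1, 1091 in replicate 2) and lay 346 bp outside the gene on chromosome V from 14696903 to 14697096. No other protein-coding gene had an end within 500 bp of it.

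The adaptor gene pat-6, which encodes parvin (actopaxin), had separate peaks at both ends. One was peak 1274, 82 bp outside the gene on chromosome IV from 261704 to 261905, and an end of pqbp-1.1 lay 122 bp from its centre. The other was peak 2088, 322 bp outside the opposite end (chromosome IV from 264389 to 264718), with no other protein-coding gene end within 500 bp. The first differed in rank between replicates, with number 931 in replicate 1 and 2085 in replicate 2, whereas the other was number 1904 in replicate 1 and 2502 in replicate 2. At pat-4, which encodes integrin-linked kinase and partners PAT-6, peak 3326 lay 342 bp outside the gene (chromosome III from 94987 to 95316). It was number 3854 in replicate 1 and 2980 in replicate 2.

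No combined peak lay at the ends of the other 5 genes of this complex. These are the integrin genes pat-2 and pat-3, the PINCH gene unc-97, the perlecan gene unc-52 and the LIM domain gene unc-95. Their nearest combined peaks were 1168 bp (unc-97) to 21024 bp (unc-95) away. Neither integrin gene had an end peak in either replicate. For pat-3, however, peaks lay just beyond the window, at 576 bp in replicate 1 and 578 bp in replicate 2.

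Thick filament and M-line genes had end peaks at 3 of 14, against 19.6% of all other genes: unc-45, unc-22 and unc-15. The myosin chaperone gene unc-45 had peaks at both ends. Peak 868 lay 258 bp outside it (chromosome III from 491180 to 491398), and its number was 843 in replicate 1 and 905 in replicate 2. Peak 2625 lay 154 bp outside the opposite end (chromosome III from 502614 to 502943; 2854 in replicate 1, 2414 in replicate 2). No other protein-coding gene had an end within 500 bp of either, so among protein-coding genes both lay at unc-45 alone. At unc-15, the paramyosin gene, peak 4351 lay 128 bp outside (chromosome I from 7383160 to 7383489). It was number 3559 in replicate 1 but 5607 in replicate 2, and it was the weakest of the end peaks.

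For unc-22, which encodes the giant kinase twitchin, peak 3302 lay inside the gene, 410 bp from an end (chromosome IV from 12010432 to 12010761; 3694 in replicate 1, 2841 in replicate 2). An end of the gene ZK617.26 was closer, at 324 bp. This call was lost when gene ends were moved by +100 bp. No myosin heavy chain gene of the 49 had a combined peak at an end, where 19.6% of all other genes had one. The nearest lay 1640 bp from unc-54, which encodes the main body wall myosin, 3594 bp from myo-1, 5274 bp from myo-2 and 11910 bp from myo-3. The light chain genes mlc-1, mlc-2 and mlc-3 had none either, with nearest peaks at 7712, 4294 and 1232 bp. The titin-like gene ttn-1, the Ig domain gene dim-1 and the M-line genes unc-89 and unc-98 also lacked an end peak. The nearest combined peak to unc-98 was 69274 bp away, the farthest of all 49.

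**Figure D2:**
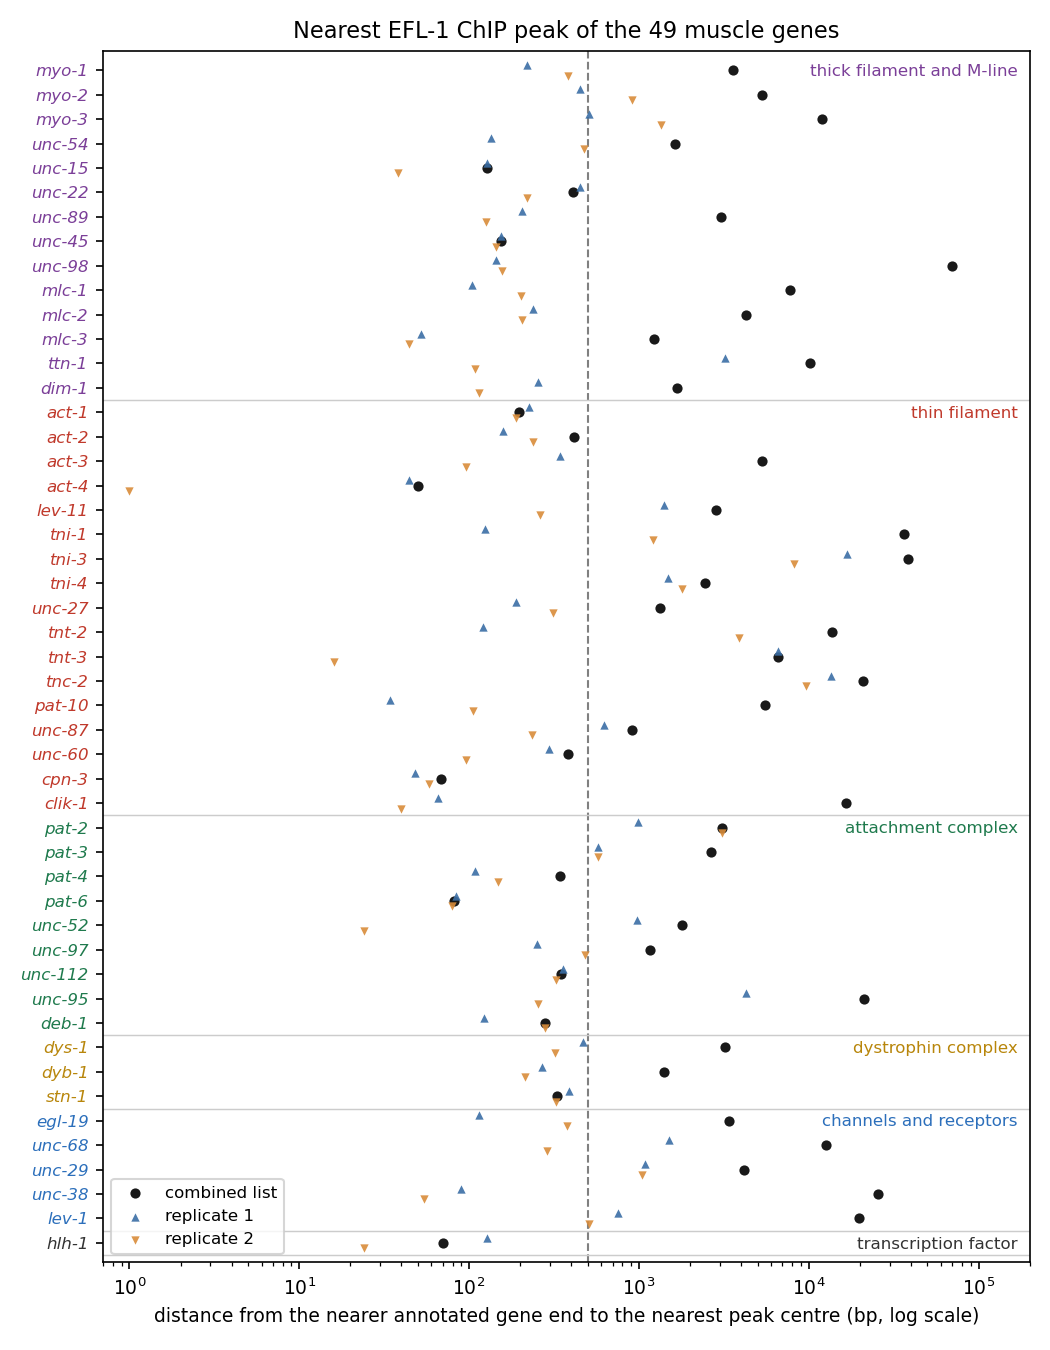
Distance in bp (log scale) from the nearer annotated end of each of the 49 muscle genes to the nearest peak centre in the combined list (black circles), replicate 1 (blue triangles) and replicate 2 (orange triangles), with genes grouped by role and the 500 bp window as a dashed line; a distance below 1 bp is drawn at 1 bp. In the combined list 14 genes fall inside the window, whereas 34 do in replicate 1 and 38 in replicate 2.

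Of 17 thin filament genes, 5 had an end peak, against 19.6% of all other genes: act-2, act-1, act-4, unc-60 and cpn-3. The actin genes act-2 and act-1 are neighbours on chromosome V, and 3 combined peaks lay around them. Peak 501 was 412 bp outside act-2 on the side facing act-1, from 11078436 to 11078695 (447 in replicate 1, 566 in replicate 2). Peak 3311 was 466 bp outside act-1 on the side facing act-2, from 11080422 to 11080751 (3445 in replicate 1, 3712 in replicate 2). Peak 2782 was 196 bp outside the far end of act-1, from 11082446 to 11082775 (2489 in replicate 1, 2824 in replicate 2). Thus act-1 had peaks at both ends and act-2 at one. The third actin gene on this chromosome, act-3, had its nearest combined peak 5302 bp away. Moving gene ends by -100 bp removed the act-2 call. Actin genes are near-identical in sequence, and how reads that match several of them were placed is not given in the sources used here.

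The remaining actin gene, act-4 on chromosome X, had peak 4211 at 50 bp outside an end (4960406 to 4960735; 4129 in replicate 1, 4655 in replicate 2) and peak 3601 inside the gene, 1828 bp from that end (4962284 to 4962613; 3914 in replicate 1, 3453 in replicate 2). At unc-60, which encodes the actin-severing protein cofilin, peak 1969 lay 382 bp outside (chromosome V from 1474540 to 1474869; 2275 in replicate 1, 1768 in replicate 2), and the end of the gene F53E2.2 was equally far. The calponin family gene cpn-3 is 760 bp long. Its end peak was number 4318, at 68 bp (chromosome I from 3988603 to 3988932; 4395 in replicate 1, 4947 in replicate 2). A much stronger peak, number 218, lay 634 bp from its opposite end (chromosome I from 3987131 to 3987481), just beyond the window and 725 bp from an end of aars-2. Of the regulatory proteins of the thin filament, none had an end peak, where 19.6% of all other genes had one. That group holds tropomyosin (lev-11), 4 troponin I genes (tni-1, tni-3, tni-4 and unc-27), the troponin T genes tnt-2 and tnt-3, and the troponin C genes tnc-2 and pat-10. Their nearest combined peaks ran from 1324 bp (unc-27) to 38511 bp (tni-3).

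The calponin-related genes unc-87 and clik-1 also lacked an end peak. For unc-87, peak 2016 lay 908 bp away (chromosome I from 6760233 to 6760393), but an end of F08B6.1 was 103 bp from it. In the dystrophin complex, which links actin to the membrane, the syntrophin gene stn-1 had peak 2645 at 328 bp outside an end (chromosome I from 9500776 to 9501105; 2809 in replicate 1, 2161 in replicate 2). A further peak, number 3078, lay 938 bp beyond its opposite end (chromosome I from 9506057 to 9506165) and 343 bp from an end of F30A10.9. The dystrobrevin gene dyb-1 and the dystrophin gene dys-1 had no combined end peak.

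None of the 5 channel and receptor genes had a combined end peak, where 19.6% of all other genes had one. These are the calcium channel gene egl-19, the ryanodine receptor gene unc-68 and the acetylcholine receptor subunit genes unc-29, unc-38 and lev-1. Their nearest peaks were 3386 bp (egl-19) to 25607 bp (unc-38) away. The only transcription factor gene in the set, hlh-1, the worm relative of MyoD, had peak 3931 at 70 bp outside an end (chromosome II from 4518340 to 4518669; 3583 in replicate 1, 3534 in replicate 2). No other protein-coding gene end lay within 500 bp of it.

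**Figure D3:**
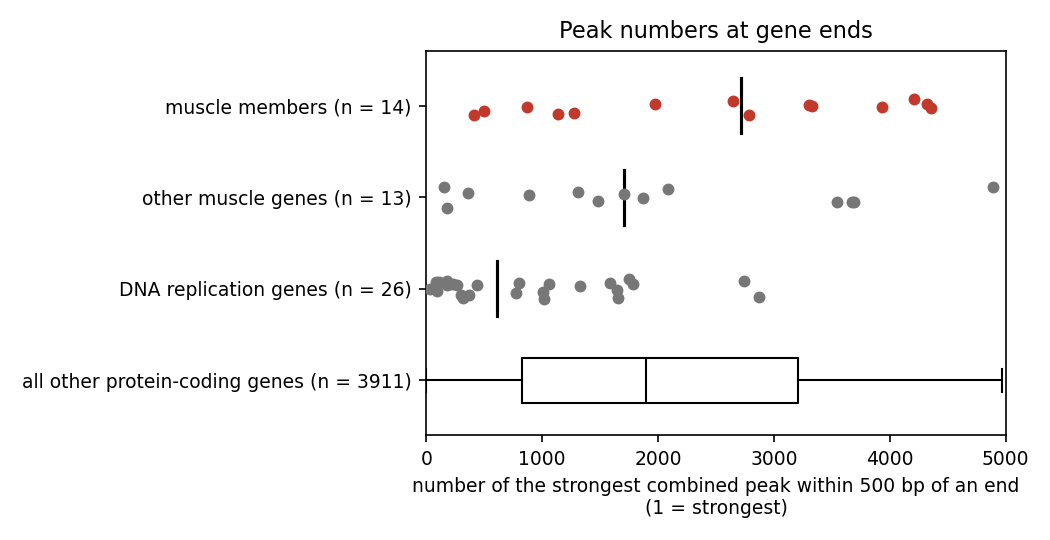
Number of the strongest combined peak within 500 bp of a gene end (1 is the strongest of 4966) for genes that had one; points are genes and vertical bars medians, and the box shows the median, quartiles and range of all other protein-coding genes. Muscle genes have a median of 2714, other muscle genes 1707, DNA replication genes 607.5 and all other protein-coding genes 1892.

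The end peaks of muscle genes were also described by position, neighbouring genes and width, and no difference was tested. Of their 17 peaks, 16 were centred outside the gene (94.1%), close to the 89.2% of 4297 pairs of a gene and an end peak among the other genes. At 11 of the 14 genes, at least 1 end peak had no other protein-coding gene end within 500 bp (78.6%), against 39.6% of the other genes with an end peak. The 3 exceptions were deb-1, unc-22 and unc-60. How often muscle genes without an end peak lack a near neighbour was not examined. When each peak was given only to the gene with the nearest end, 12 muscle genes kept a peak (24.5%), against 13.9% of the other genes. Of the 17 peaks, 12 had the fixed width of 330 bp that 52.8% of all combined peaks have exactly, and the other 5 were narrower, down to 194 bp. Counting only the strongest end peak of each gene, 9 of 14 at muscle genes had this width (64.3%), against 39.1% at the other genes with an end peak.

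Inside genes, combined peaks were found at 5 muscle genes (10.2%, exact 95% interval 3.40 to 22.2%), against 5.53% of the other genes. The muscle genes are longer, with a median span of 4491 bp, against 2004 bp for the other genes, and at the share of other genes of like length 5.24 would be expected. Per 100 kb of span there were 1.29 peak centres in muscle genes (6 in 465.3 kb), against 2.19 in the other genes. Tropomyosin gene lev-11 held 2 of the 6, peak 3108 (chromosome I from 14628070 to 14628399) and peak 3768 (chromosome I from 14626824 to 14627153). Peak 4201 lay in unc-89, 11114 bp from an end (chromosome I from 4046652 to 4046981), and peak 3137 lay in dys-1, 3210 bp from an end (chromosome I from 11554476 to 11554805). The other two are those of act-4 and unc-22. The longest gene of the set, ttn-1 with 81724 bp, held no combined peak, and neither did unc-52 (37136 bp) or unc-68 (27358 bp). The table has 1 span per gene, so starts of shorter transcripts within these long genes were not examined.

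In percentage points, the gap between muscle genes and the rest was wider in the full replicate lists than in the combined list. The full lists are longer and reach down to weak peaks, which raises the shares of both groups. In the full list of replicate 1, 34 muscle genes had an end peak (69.4%), against 44.3% of the other genes, and in replicate 2, 38 did (77.6%), against 44.9%. Among the 4966 strongest peaks of each replicate the counts were 15 (30.6%) in replicate 1, against 19.5% of the other genes, and 16 (32.7%) in replicate 2, against 19.2%. In replicate 1 this cut falls within 4983 peaks that share the top score, so it rests on the peak numbers alone. Both replicates had an end peak at 31 muscle genes (63.3%), against 33.2% of the other genes. At 29 of the 31 a replicate 1 peak and a replicate 2 peak overlapped each other at the same end (59.2% of the 49 genes, exact 95% interval 44.2 to 73.0%), against 29.6% of the other genes. On the shares of other genes of the same chromosome 14.8 such genes would be expected, and on those of like length 16.4. Shares above those of the other genes were also found for DNA replication genes, further muscle genes and neuronal genes. Of 33 DNA replication genes, 31 had an end peak in replicate 1 (93.9%) and 30 in replicate 2 (90.9%), higher shares than those of the muscle genes. Of 72 further muscle genes, 39 had an end peak in replicate 1 (54.2%) and 37 in replicate 2 (51.4%). Of 36 neuronal genes, 18 did in replicate 1 (50.0%) and 17 in replicate 2 (47.2%), while 14 of 33 intestinal genes did in each (42.4%). For the further muscle genes and the neuronal genes, the exact 95% intervals include the shares of the other genes. None of these differences was tested.

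Of these 31 genes, 17 had no combined end peak (34.7% of the 49), against 13.7% of the other genes. At 15 of the 17 the peaks of both replicates overlapped (30.6%, exact 95% interval 18.3 to 45.4%), against 10.2% of the other genes, and the exceptions were unc-54 and unc-97. The shares of other genes of the same chromosome would give 5.08 such genes, and those of like length 5.69. The combined list holds no peak at the ends of these 15 genes. Cut-offs of the authors' filter on agreement of ranks between replicates were not given, so the overlap describes positions of called peaks only. This group holds all 3 myosin light chain genes among the 49. The regulatory light chain gene mlc-2 had peak 5957 in replicate 1 and 5215 in replicate 2 as its strongest, and its relative mlc-1 had peak 7344 in replicate 1 and 5238 in replicate 2. The essential light chain gene mlc-3 had peak 8551 in replicate 1 and 4558 in replicate 2. Troponin C gene pat-10 had 4 end peaks in replicate 1, the strongest number 5065, and 3 in replicate 2, the strongest number 7461. The others were act-3, clik-1, dim-1, dyb-1, dys-1, egl-19, myo-1, unc-27, unc-38, unc-89 and unc-98. Weak peaks were among these: egl-19 had peak 14176 in replicate 1 and 21511 in replicate 2, and dys-1 had 16906 and 17367.

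**Figure D4:**
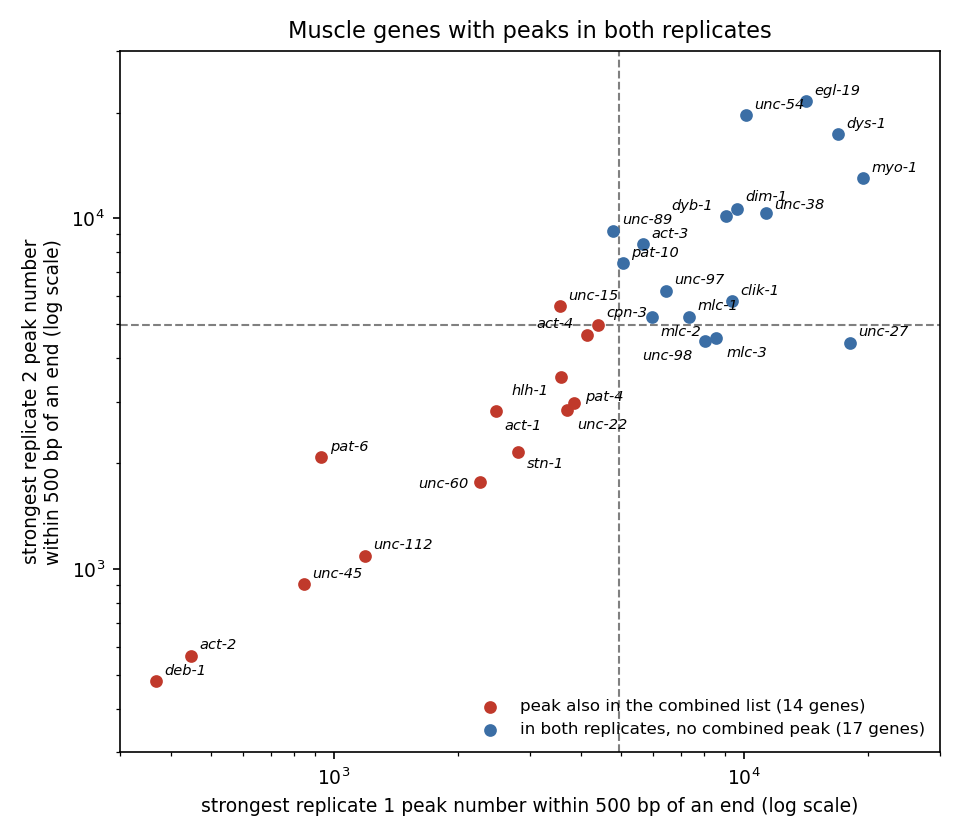
Strongest peak number within 500 bp of a gene end in replicate 1 (x axis) and replicate 2 (y axis), both on log scales, for the 31 muscle genes with an end peak in both replicates; red points also have a combined peak (14 genes), blue points do not (17 genes), and dashed lines mark number 4966, the length of the combined list. The red points run from deb-1 (367 and 478) to cpn-3 (4395 and 4947) and unc-15 (3559 and 5607), and the blue points lie beyond number 4966 in at least 1 replicate.

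A further 10 genes had an end peak in a single replicate (20.4%), against 22.7% of the other genes, and no such peak had a number below 9896 (lev-11, replicate 2). They were myo-2, tni-1 and tnt-2 in replicate 1 and lev-11, tnt-3, ttn-1, unc-52, unc-68, unc-87 and unc-95 in replicate 2. The remaining 8 had none in either list: lev-1, myo-3, pat-2, pat-3, tnc-2, tni-3, tni-4 and unc-29. They make up 16.3% of the 49, against 44.1% of the other genes. Ranks do not carry over between lists of different length, and the enrichment behind these weak peaks is not given, so they are described as positions of called peaks only. Among the 8 genes without a replicate end peak, myo-3 (replicate 1) and lev-1 (replicate 2) had a peak 506 bp from an end. Those nearest pat-3 lay at 576 bp (replicate 1) and 578 bp (replicate 2). For the rest of the 8, the nearest replicate peak was 990 bp away (pat-2, replicate 1) or farther.

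The counts by chromosome rest on 3 to 14 muscle genes each. On chromosome I, 3 of 14 muscle genes had a combined end peak, against 28.5% of the other genes there, and on chromosome X 1 of 11 did, against 11.7%. On chromosome V 4 of 10 did, against 13.3%, and on IV 3 of 6, against 19.5%. On III 2 of 5 did, against 29.9%, and on II 1 of 3, against 20.0%. These counts are too small to order the chromosomes. The neighbours act-1 and act-2 are 2 of the 4 genes on V.

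A longer list of genes that act in or on muscle gave a share close to that of all genes. Of 74 symbols listed, 72 were in the table, and 13 of these genes had a combined end peak (18.1%, exact 95% interval 9.98 to 28.9%), with 2 at both ends. The strongest peaks were at cap-2 (number 149) and lam-1 (178), which encode an actin capping protein subunit and a laminin subunit, and at frg-1 (357), which had peaks at both ends. The ubiquitin enzyme genes ufd-2 (889) and chn-1 (3690, both ends), whose worm products act on the UNC-45 protein, were also among the 13. Others were the capping protein gene cap-1 (1306), the chaperone cofactor gene unc-23 (1867), the junctophilin gene jph-1 (3546) and the acetylcholine receptor gene lev-8 (3673). Of the neuronal genes 4 of 36 had an end peak (11.1%, 3.11 to 26.1%), and of the intestinal genes 2 of 33 did (6.06%, 0.743 to 20.2%). Of the DNA replication genes 26 of 33 did (78.8%, 61.1 to 91.0%), with a median strongest peak number of 607.5. The median distance from the nearer gene end to the closest combined peak was 2859 bp for the muscle genes, 181 bp for the replication genes and 5552 bp for all protein-coding genes outside the muscle set.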

How the data were processed

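The authors' peak lists were used as deposited. Per the file headers and the source field of each line they are in WormBase WS220 coordinates and came from SPP through IDR, that is, a peak caller followed by a filter on agreement of ranks between replicates. The aligner, software versions, cut-offs and handling of the inputs were not given in the sources used here. The EFL-1 antibody is taken from the sample descriptions; the general protocol text speaks of GFP and RNA polymerase II antibodies. The score that the authors deposited has no stated unit and is the same in every combined peak, so the number in each peak's name was taken as the rank; down the nuclear replicate lists the score rose from one number to the next by at most 0.000157 (replicate 1) and 0.000209 (replicate 2), but 4983 and 3787 peaks tied at the top score cannot be checked this way. Gene ends came from RefSeq genes of WBcel235. Since its table has no strand, peaks at either and at both ends replaced the planned peaks at starts. The offset between builds was checked in 30 stretches, 5 per chromosome, as the mean of the median signed distances from low and high gene ends to peak centres within 500 bp; it ran from -83.5 to 2.4 bp. Promoter sequences and motifs were not analysed here, nor were input samples.

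Counting used Python 3.11.15 (pandas 2.3.3, numpy 2.4.6), was first tested on simulated peaks, and intervals and plots used scipy 1.17.1 and matplotlib 3.10.9. Intervals are exact (Clopper-Pearson) 95% intervals and cover counting error only. The members, the other gene lists and the named-gene rule (every gene with an end peak, a peak 500 to 1000 bp away or 2 or more peaks inside) were chosen with earlier results of these data known. The symbols tni-2, tnc-1 and opt-2 were not in the table, and these genes were not searched for under other names. Values expected by chromosome or by gene length (10 equal classes), the overlap of replicate peaks and the shared windows were added after the data were seen.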

Additional observations from a re-analysis of the deposited data

How the results depend on the processing

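The end peak counts of 14 muscle genes and 3911 other genes stayed within 1.5 times of these values under 8 and 9 of 15 alternatives, among them for both a 1000 bp window, any overlapping base, the nearest end only and gene ends moved by 100 bp either way or by the estimated local offset. They moved, for muscle genes and then the others, to 6 and 2420 with the stronger 50% of the list, 34 and 8820 with all replicate 1 peaks, 38 and 8938 with all replicate 2 peaks, 3 and 379 for both ends, 8 and 2106 for the low-coordinate end alone and 9 and 2184 for the high-coordinate end alone; a 250 bp window gave 7 muscle genes. The end-choice alternatives and the local offset were chosen after the data were seen. Genes with a peak inside (5 muscle, 1101 others) moved to 0 and 487 with the stronger 50%, 31 and 6426 in replicate 1 and 32 and 7065 in replicate 2. These settings use fewer or more peaks, ends or bases by construction. With the strongest peaks of a single replicate in place of the combined list, end peak counts were 15 to 16 for muscle genes and 3827 to 3875 for the others, and inside counts 5 to 7 and 1100 to 1157. Transcript starts were not run for want of transcripts. No paired analysis was possible because no result compares samples of different groups. Without strand, a peak at a single end may lie at a start or at the opposite end, and without depth weak peaks have no error.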
